A study of Mus musculus with 2 samples.

Results

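Macroautophagy wraps part of the cytoplasm in a new membrane, the autophagosome, and delivers it to the lysosome for breakdown. A kinase complex starts the process, a lipid kinase complex marks the membrane, lipid transfer proteins enlarge it, and a conjugation system attaches small proteins of the ATG8 family (LC3 and GABARAP) to it. Receptors on the cargo bind ATG8 proteins, and in mitophagy the cargo is a damaged mitochondrion. The heart has a high density of mitochondria and little cell renewal, and loss of the lysosomal membrane protein LAMP2 causes a cardiomyopathy known as Danon disease in people.

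Transcripts of 40 genes of this machinery were measured in adult mouse heart, out of 43346 gene identifiers in the tables. They were chosen by name: each listed symbol was matched through the GENCODE M21 annotation, and all 40 were found in both libraries. The tissue was whole heart of C57BL/6J mice aged 8 weeks, for which no treatment or mutation is named, described as littermates of both sexes. The 2 libraries, biological replicates 1 and 2, were made from polyadenylated RNA longer than 200 nucleotides and read as stranded pairs of 76 nucleotides. The 2 biosamples carry the same donor record, so how far they represent separate animals is not known. The design holds 1 group, with no treated or mutant arm, so the comparisons are between genes within each library, and between the 2 libraries. All errors are SDs over n = 2, and an exact sign test on 2 values cannot go below p = 0.5.

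The libraries hold 57464573 and 62912053 estimated counts, 98.3% of them on genes in each. Cardiomyocyte markers were abundant in both (10 genes, summed TPM 35542 and 40601), and 0 of 10 passed the test between the libraries that is given below. They were not all steady within its fold limit of 2. Of the 2 highest, Tnni3 was 1.90-fold higher in replicate 2 after scaling (4631 and 11030 TPM) and Actc1 1.25-fold lower (14525 and 13049 TPM). The median log2 ratio of the 10 was -0.10. The libraries stand apart in 3 other ways. By that test markers of blood and airway were higher in replicate 2: 8 of 8 erythroid genes were called, with sums of 7602 and 94965 TPM, and 7 of 7 lung and airway genes, with sums of 0.65 and 2276 TPM and 3 of them at 0 in replicate 1. Other lists were higher in part: 6 of 8 adipocyte genes (122 and 462 TPM) and 4 of 8 immune genes (Cd74, H2-Ab1, Cd68 and Cd79a, 196 and 415 TPM for the list). Of 7 skeletal muscle genes 4 were tested, and 3 of them were higher (Acta1, Tnnt3 and Myl1, 1974 and 3493 TPM for the list). Most of that sum was Ckm (1595 and 2525 TPM), which was not called, and Tnnt3 had 1 and 34 counts. The 3 genes not tested, Myh4, Myh1 and Tnnc2, had at most 5 counts in either library. The sums were 425 and 413 TPM for 8 fibroblast genes (Lum lower), 986 and 1097 for 8 endothelial genes (0 called) and 523 and 507 for 7 smooth muscle and pericyte genes (Cnn1 higher). Genes of the mitochondrial genome and their nuclear copies on chromosome 1 (44 in all) took 62.9% and 44.9% of the TPM on genes. The sex-linked genes also go against the label of pooled sexes: Xist had 13725 and 13 counts, and Ddx3y had 0 and 922.

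TPM is the abundance of a transcript per unit of length as a share of all transcripts in a library, so levels of different genes can be compared within a library. In bulk tissue, fewer cells of a type and less RNA per cell cannot be told apart. The 40 genes summed to 1650 TPM in replicate 1 and 2040 TPM in replicate 2. These sums are 0.168% and 0.208% of the TPM on genes (mean 0.188% ± 0.0283). When the mitochondrial genes and copies were left out of the total, the order turned, to 0.453% in replicate 1 and 0.377% in replicate 2.

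Of the 40 genes, 39 reached 1 TPM in both libraries, against 49.7% of 21474 protein-coding genes. The exception was Atg4c, a protease gene, at 1.33 and 0.96 TPM. The median of the 40 was 12.3 and 15.6 TPM, and the median over 11161 protein-coding genes with a mean of at least 1 TPM was 6.75 and 7.58 TPM. The levels were uneven. The 5 highest genes, Map1lc3a, Gabarap, Lamp1, Pink1 and Sqstm1, held 65.7% and 66.9% of the sum in the 2 libraries. In the order of mean TPM, 19 of 39 neighbouring genes kept their order in both libraries and 20 did not, so ranks in the crowded middle of the list are not resolved. The genes carried between 187 and 32607 counts per library, which makes counting error small for most of them. The uncertainty of dividing fragments shared between genes, given in the tables as a posterior SD, was at most 0.562% of a gene's count (Atg4a). It does not cover the split among a gene's own transcripts, which sets the length that enters its TPM. At a posterior SD of 0, that length was 3031 and 2364 nucleotides for Ulk2 and 2381 and 1810 for Nbr1. The TPM levels are therefore less certain than the counts.

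**Figure D1:**
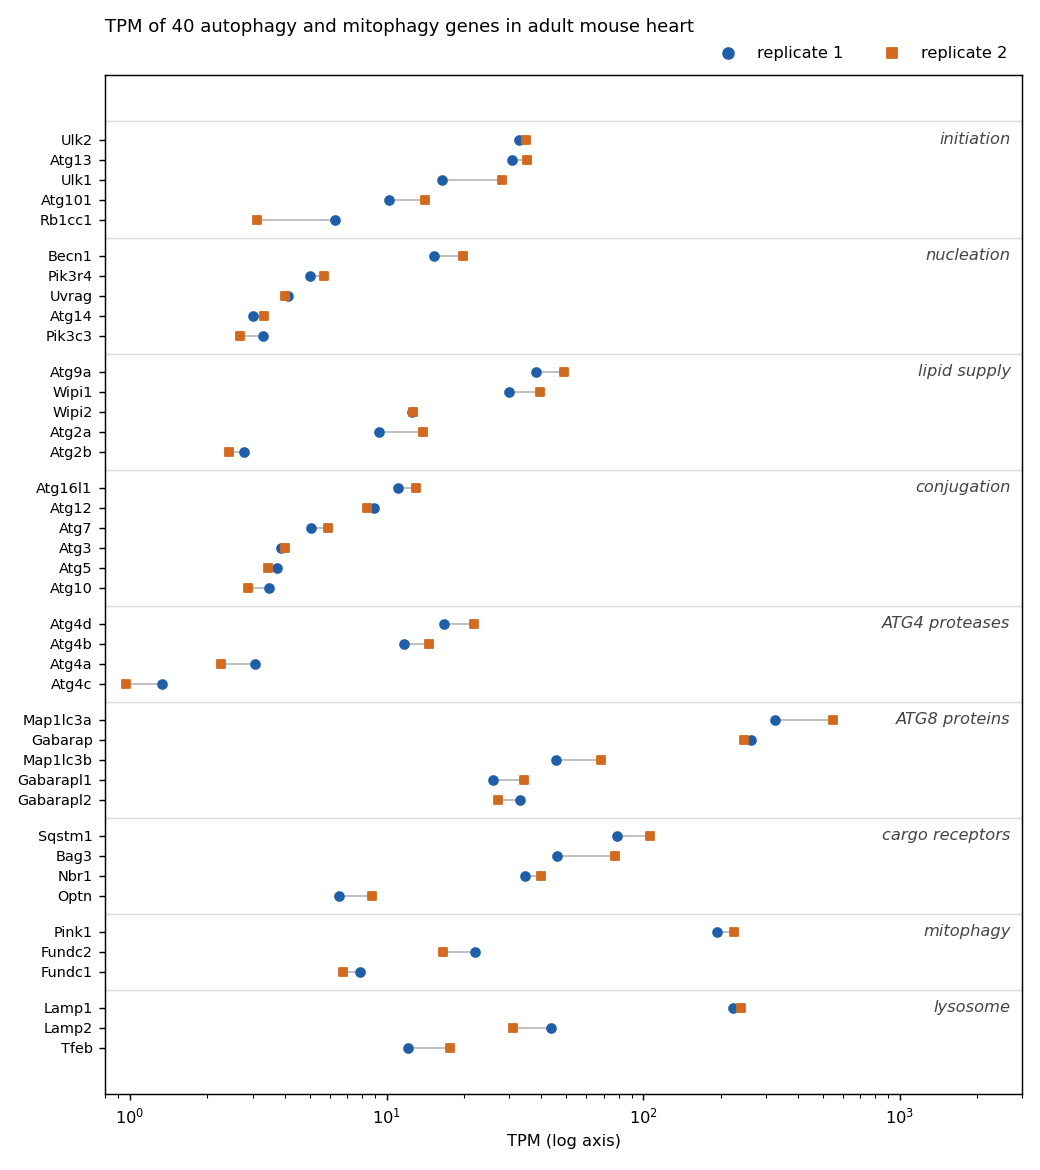
TPM of each of the 40 genes on a log axis, grouped by step, with a circle for replicate 1 and a square for replicate 2. Map1lc3a (326 and 547 TPM) stands at the high end and Atg4c (1.33 and 0.96 TPM) at the low end of a range in which most genes of the early steps lie below 40 TPM.

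The initiation step is the ULK1 complex, in which the kinases ULK1 and ULK2 act with ATG13, the scaffold FIP200 (gene Rb1cc1) and ATG101. Its 5 genes summed to 96.2 and 115 TPM. Ulk2 was measured at 32.7 and 34.8 TPM and Ulk1 at 16.4 and 28.1 TPM. Ulk2 was therefore the higher of the kinases in both libraries, with a log2 ratio of Ulk1 over Ulk2 of -0.65 ± 0.49. That order depends on which transcripts are counted. Only 27.1% and 19.2% of the Ulk2 TPM lay on transcripts annotated as protein coding, against 100% for Ulk1. On protein-coding transcripts alone Ulk1 was higher in both libraries, at 16.4 and 28.1 TPM against 8.87 and 6.67 TPM for Ulk2 (log2 ratio 1.48 ± 0.84). By counts not divided by length the kinases were not ordered, with log2 ratios of -0.17 and 0.90. Atg13 stood at 30.7 and 35.2 TPM and Atg101, which stabilises ATG13, at 10.2 and 14.1 TPM. Rb1cc1 was the lowest gene of the complex in both libraries, at 6.27 and 3.11 TPM.

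The nucleation step is the class III PI3-kinase complex, which makes the lipid signal that later factors read. Its 5 genes had the lowest sum of all the steps, at 30.7 and 35.6 TPM. Becn1, encoding the regulatory subunit Beclin 1, was the highest at 15.3 and 19.9 TPM. Pik3c3, encoding the catalytic subunit VPS34, was measured at 3.28 and 2.67 TPM, and Pik3r4, encoding its partner VPS15, at 5.04 and 5.67 TPM. Becn1 exceeded Pik3c3 by a log2 ratio of 2.56 ± 0.48. The gap narrowed to 0.50 ± 0.50 on protein-coding transcripts, which hold 23.8% and 24.2% of the Becn1 TPM. Atg14 and Uvrag encode alternative subunits, ATG14 for autophagosome formation and UVRAG for a complex that also serves endosomes. Atg14 stood at 3.0 and 3.33 TPM and Uvrag at 4.12 and 4.03 TPM, which put Uvrag slightly higher in both libraries (log2 ratio of Atg14 over Uvrag -0.37 ± 0.13).

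Membrane growth needs lipid from other membranes, and ATG9A vesicles, the ATG2 lipid transfer proteins and the WIPI lipid readers serve it. Atg9a was the highest of these 5 genes, at 38.1 and 49.3 TPM. Wipi1 stood at 29.9 and 39.4 TPM and Wipi2, the WIPI protein that recruits the conjugation machinery, at 12.6 and 12.7 TPM. The log2 ratio of Wipi1 over Wipi2 was 1.44 ± 0.28. Of the ATG2 paralogs, Atg2a was measured at 9.32 and 13.9 TPM and Atg2b at 2.77 and 2.43 TPM, a log2 ratio of 2.13 ± 0.54. In both families the same paralog was higher in each library, and the 2 values of each gene did not overlap. The sizes depend on length: by counts not divided by it the log2 ratios were 0.76 ± 0.14 for the WIPI pair and 1.27 ± 0.55 for the ATG2 pair.

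The conjugation genes were low beside most other steps. ATG7 is the E1-like enzyme, ATG3 and ATG10 are the E2-like enzymes, and ATG12 is joined to ATG5, which with ATG16L1 acts at the membrane. The 6 genes summed to 36.2 and 37.6 TPM, with Atg16l1 highest at 11.1 and 13.0 TPM and Atg12 next at 8.88 and 8.38 TPM. Atg7 stood at 5.09 and 5.91 TPM, Atg3 at 3.87 and 4.01 TPM, Atg5 at 3.74 and 3.43 TPM and Atg10 at 3.49 and 2.87 TPM. Within the complex that carries ATG12, Atg5 was below both partners: the log2 ratio was -1.27 ± 0.03 against Atg12 and -1.75 ± 0.25 against Atg16l1. The E2-like pair was close, with Atg3 over Atg10 at 0.32 ± 0.24.

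ATG4 proteases trim ATG8 proteins before conjugation and release them afterwards, and mammals have 4 of them. Atg4d was the highest at 16.7 and 21.9 TPM, followed by Atg4b, the most active protease of the family in biochemical work, at 11.6 and 14.7 TPM. Atg4a stood at 3.07 and 2.26 TPM and Atg4c at 1.33 and 0.96 TPM. The order Atg4d, Atg4b, Atg4a, Atg4c was the same in both libraries. The gap between Atg4b and Atg4d was a log2 ratio of -0.55 ± 0.04 over all transcripts and -2.37 ± 0.03 over protein-coding ones. In Atg4b the leading transcript was Atg4b-204, annotated as a target of nonsense-mediated decay, with 48.8% and 56.5% of the gene's TPM.

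The ATG8 family supplied the largest part of the summed TPM. Its 5 genes held 693 and 924 TPM, which is 42.0% and 45.3% of all 40 genes (mean 43.6% ± 2.30). Map1lc3a (ENSMUSG00000027602.5, chr2:155276297-155278073, plus strand), encoding LC3A, stood at 326 and 547 TPM (mean 437 ± 156). Gabarap (ENSMUSG00000018567.10, chr11:69991143-69994951, plus strand) stood at 262 and 247 TPM (mean 255 ± 10.7). Map1lc3a was the highest of the 40 by deposited TPM in both libraries. With mitochondrial genes and copies left out of the total, Map1lc3a was still higher in replicate 2 than in replicate 1, at 896 and 1011 TPM. Gabarap was still higher in replicate 1, and by a wider gap, at 719 and 456 TPM. Map1lc3b, encoding LC3B, the protein most often followed in autophagy assays, stood at 45.7 and 68.4 TPM, which is 2.92 ± 0.12 log2 units below Map1lc3a. That gap was 1.94 ± 0.57 on protein-coding transcripts and 1.31 ± 0.21 by counts not divided by length. Gabarapl1 was measured at 25.9 and 34.3 TPM and Gabarapl2 at 32.9 and 27.2 TPM. Gabarapl1 and Gabarapl2 were the only pair of 33 compared that was not ordered over all transcripts, since each was the higher in 1 library (log2 ratios -0.34 and 0.34). Gabarap exceeded Gabarapl1 by 3.09 ± 0.35 and Gabarapl2 by 3.09 ± 0.13.

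These ATG8 levels rest partly on transcripts that are not annotated as protein coding. The processed transcript Map1lc3a-203 (826 nucleotides) held 59.9% of the Map1lc3a TPM in replicate 1 and 37.3% in replicate 2, and the protein-coding Map1lc3a-201 held 40.1% and 62.7%. Gabarap-204, a transcript with a retained intron, held 53.6% and 42.3% of Gabarap. Counting protein-coding transcripts alone, Map1lc3a stood at 131 and 343 TPM and Gabarap at 121 and 142 TPM. Map1lc3a remained above Gabarap in each library, but the difference was no longer larger than its spread (log2 ratio of Gabarap over Map1lc3a -0.69 ± 0.82). The family's share of the 40 genes on this scale was 27.9% and 37.6% (mean 32.8% ± 6.83). It was still the highest step in both libraries on this scale, but Map1lc3a itself then lay below Lamp1 (223 TPM) and Pink1 (194 TPM) in replicate 1. By counts not divided by length the lead of the family did not hold in both libraries: it had 37498 counts against 38082 for the 3 lysosome genes in replicate 1, and 56372 against 40562 in replicate 2.

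Cargo receptors link ubiquitin or other tags to ATG8 proteins. Sqstm1, encoding p62, stood at 78.7 and 106 TPM. Bag3, encoding a co-chaperone that directs damaged muscle proteins to autophagy, stood at 45.9 and 77.7 TPM. Nbr1 was measured at 34.7 and 39.96 TPM, and Optn, encoding optineurin, at 6.50 and 8.76 TPM. Sqstm1 was the highest of the receptors in both libraries. Its log2 ratio was 1.30 ± 0.16 over Nbr1, 0.61 ± 0.23 over Bag3 and 3.60 over Optn, the last the same in both libraries to 2 decimals.

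Among the mitophagy genes, Pink1 (ENSMUSG00000028756.8, chr4:138313409-138326307, minus strand) encodes the kinase that accumulates on depolarised mitochondria. It stood at 194 and 225 TPM (mean 210 ± 21.6), the fourth highest of the 40 by mean. The outer membrane receptor genes among the 40, Fundc1 and Fundc2, were lower. Receptors of this kind outside the 40 are not part of this comparison. Fundc1, which binds LC3 in hypoxia, was measured at 7.86 and 6.77 TPM and its paralog Fundc2 at 22.0 and 16.6 TPM. Pink1 was above Fundc1 by 4.84 ± 0.30 log2 units and above Fundc2 by 3.45 ± 0.44. Fundc2 was above Fundc1 in both libraries (log2 ratio of Fundc1 over Fundc2 -1.39 ± 0.14).

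The lysosomal end was represented by 3 genes. Lamp1 (ENSMUSG00000031447.6, chr8:13159161-13175338, plus strand), encoding a main glycoprotein of the lysosomal membrane, stood at 223 and 241 TPM (mean 232 ± 13.0). Lamp2 (ENSMUSG00000016534.11, chrX:38401357-38456454, minus strand) stood at 43.6 and 31.1 TPM, below Lamp1 in both libraries by 2.65 ± 0.42 log2 units. Tfeb, encoding a transcription factor that turns on lysosomal and autophagy genes, was measured at 12.1 and 17.6 TPM.

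Set side by side, the steps as listed formed a graded series. The ATG8 proteins were followed by the lysosome genes with 15.5% ± 1.88 of the sum, mitophagy with 12.9% ± 1.00 and the cargo receptors with 10.7% ± 0.957. Initiation held 5.74% ± 0.127 and lipid supply 5.69% ± 0.107. Conjugation (2.02% ± 0.245), the ATG4 proteases (1.97% ± 0.0254) and nucleation (1.80% ± 0.0844) were lowest. Of 36 pairs of steps, 34 kept the order of their sums in both libraries. The exceptions were initiation against lipid supply and conjugation against the ATG4 proteases. By the median gene rather than the sum, the ATG8 step was again highest (45.7 and 68.4 TPM) and nucleation lowest (4.12 and 4.03 TPM), with conjugation next lowest (4.48 and 4.96 TPM). The low end depends on the scale. On protein-coding transcripts alone the ATG4 median was lowest, at 2.915 and 3.04 TPM against 3.64 and 3.65 TPM for nucleation. In summed counts not divided by length, nucleation (4592 and 5112) was below the ATG4 proteases (4320 and 5555) in replicate 2 alone. The mitophagy sum rests on Pink1, since the median mitophagy gene was at 22.0 and 16.6 TPM. The order of the sums depends on which genes were listed, and the lysosome step holds Lamp1, Lamp2 and Tfeb alone. Outside the steps, 16 genes of lysosomal hydrolases and their activators summed to 1579 and 1775 TPM. A further 17 lysosomal membrane or V-ATPase genes summed to 920 and 1115 TPM. Both lists were above the ATG8 sum of 693 and 924 TPM. Their medians were below the ATG8 median, at 22.1 and 24.9 TPM and at 30.0 and 27.6 TPM.

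**Figure D2:**
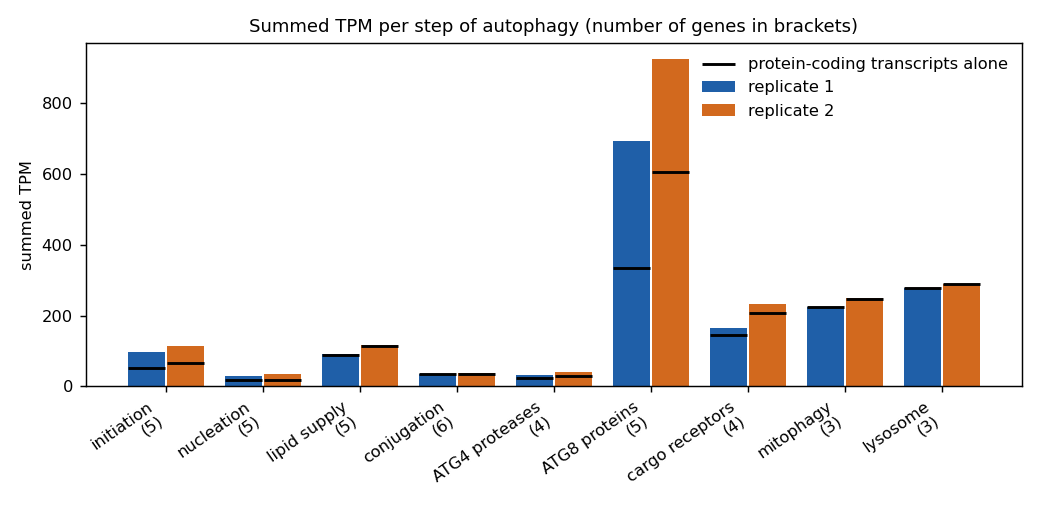
Summed TPM of each step (bars, 1 per library, number of genes in brackets), with a black line at the sum over protein-coding transcripts alone. The ATG8 bars reach 693 and 924 TPM and their lines 335 and 606 TPM, above every other step in both libraries.

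Of the 33 pairs of related genes compared within a library, 32 had the same sign in both libraries and a mean log2 ratio larger than its SD. On protein-coding transcripts alone the count was also 32, with Gabarap over Map1lc3a in place of Gabarapl1 over Gabarapl2 as the pair not ordered. Becn1 over Pik3c3 barely passed on that scale, with a mean of 0.4975 and an SD of 0.4973. Ulk1 over Ulk2 was the single pair whose direction turned on protein-coding transcripts. By counts not divided by length, 31 pairs were ordered. Many pairs share a gene, so these counts are not of independent comparisons.

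**Figure D3:**
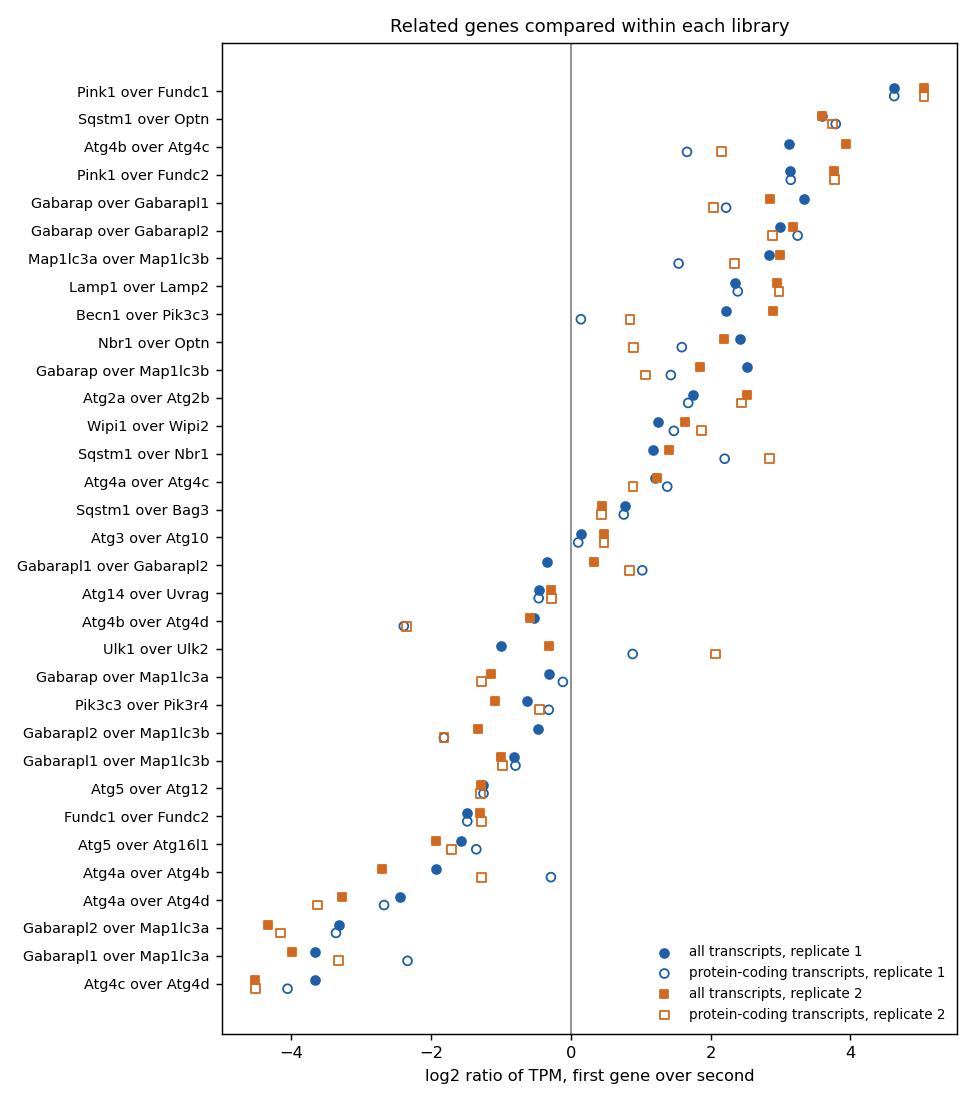
Log2 ratio of TPM for 33 pairs of related genes, with filled marks for all transcripts and open marks for protein-coding transcripts, circles for replicate 1 and squares for replicate 2. Ulk1 over Ulk2 lies left of 0 in the filled marks and right of 0 in the open marks.

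Lamp2 ends in 1 of 3 alternative last exons, which set the membrane anchor and the short cytoplasmic tail of the protein. The form called B is known as the main form of heart and skeletal muscle, and form A is the receptor of chaperone-mediated autophagy. The coding parts of these exons are shown here because they alone tell the forms apart, read from the GENCODE M21 transcripts (GRCm38, minus strand of chromosome X, exon 9 of each). They lie at chrX:38421715-38421851 for form B, chrX:38405435-38405571 for form A and chrX:38402142-38402281 for form C. Capitals mark the last 10 codons, which include the end of the tail.
Lamp2 form B: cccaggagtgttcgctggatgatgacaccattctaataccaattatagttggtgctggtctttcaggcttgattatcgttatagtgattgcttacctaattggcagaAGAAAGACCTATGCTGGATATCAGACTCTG
Lamp2 form A: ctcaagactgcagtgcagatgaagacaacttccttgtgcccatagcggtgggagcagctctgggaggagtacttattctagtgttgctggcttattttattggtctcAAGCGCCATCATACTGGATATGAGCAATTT
Lamp2 form C: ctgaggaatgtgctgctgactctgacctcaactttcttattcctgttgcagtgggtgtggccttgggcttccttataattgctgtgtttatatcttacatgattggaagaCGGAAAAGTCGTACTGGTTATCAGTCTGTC

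The exons of forms B and A have the same length of 137 bases and are identical at 53.3% of positions, and that of form C has 140 bases. The form B transcript held 76.4% of the Lamp2 TPM in replicate 1 and 65.3% in replicate 2 (mean 70.9% ± 7.87). Form A held 15.6% and 26.9%, and form C 5.49% and 6.06%. Form B led in both libraries, and the order B, A, C was kept. The annotated transcripts differ in length as well, at 3604 nucleotides for form B, 1769 for form A and 2184 for form C, so the share moves with the unit. By estimated counts form B held 82.7% ± 5.02.

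Across the 40 genes, 28 have 2 or more expressed transcripts and 12 have 1. The transcript with the highest TPM was the same in both libraries for 22 of the 28 (78.6%), beside 83.9% of 8176 genes with a mean of at least 1 TPM. The leading transcript changed for Ulk2, Rb1cc1, Map1lc3a, Gabarap, Gabarapl2 and Nbr1. By estimated counts it was the same for 26 of the 28, beside 89.6% of the same background, and changed for Map1lc3a and Wipi1. In 8 of the 28 (28.6%) the leading transcript was not annotated as protein coding in at least 1 library, against 16.3% of 7978 protein-coding genes. These were Ulk2, Atg13, Becn1, Atg4b, Map1lc3a, Gabarap, Gabarapl2 and Nbr1. Protein-coding transcripts held under 50% of the TPM in both libraries for 5 genes: Ulk2, Atg13 (41.4% and 39.7%), Becn1, Atg4b (27.5% and 29.4%) and Nbr1 (48.7% and 36.9%). Several of the leading non-coding models are short, such as Atg13-206 with 776 nucleotides and Nbr1-216 with 639. TPM divides by length, so a short model gains more TPM per fragment than a long one: Ulk2-203, with 748 nucleotides, held 53.4% of the Ulk2 TPM in replicate 2 on 672.72 estimated counts, while a processed transcript of 3151 nucleotides held 27.4% on 1848.10.

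**Figure D4:**
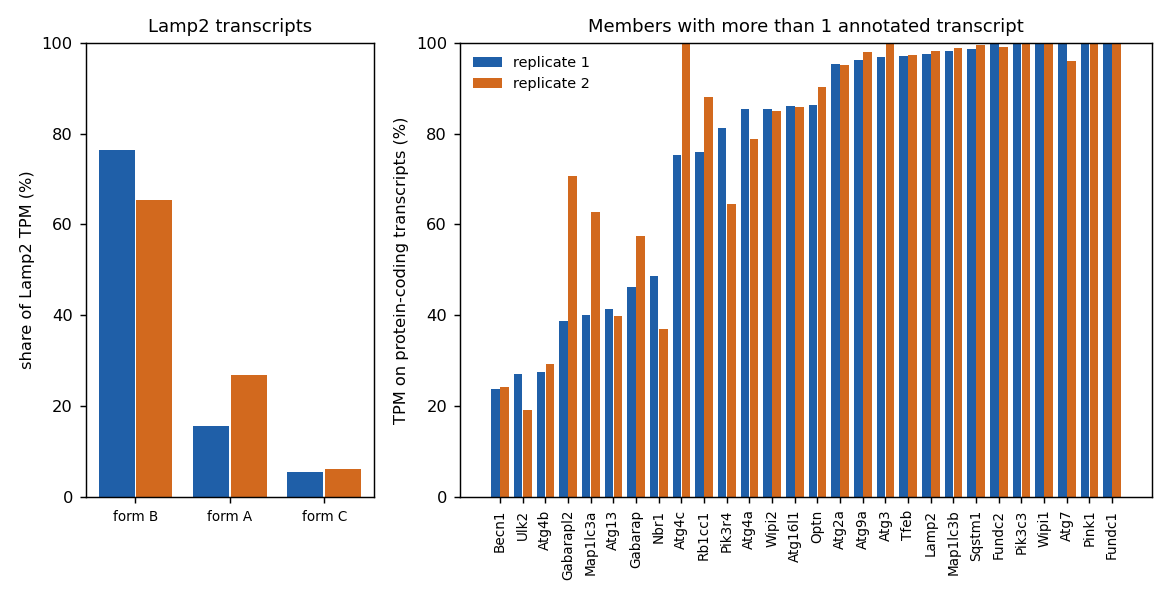
Left, share of Lamp2 TPM on the form B, A and C transcripts; right, percent of each gene's TPM on protein-coding transcripts for genes with more than 1 annotated transcript, with blue for replicate 1 and orange for replicate 2. Form B leads in both libraries, and 8 genes from Becn1 to Nbr1 lie below 50% in at least 1 library.

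TFEB binds an E-box within a longer palindromic element found near many lysosomal genes. The promoter windows of RefSeq (GRCm38.p6, 250 bases before to 50 after each start) hold 34 of the 40 genes, and they were searched for GTCACGTG on both strands. The letters were found in the windows of 4 of 34 genes, against 2.55% of 27025 genes with a window. The shorter core CACGTG, which lies inside the longer word, was found in 5 of 34, against 8.09% of genes, the added gene being Atg5. Stretches of 30 bases around each match are shown to place the word relative to the start, with the match in capitals.
Atg14: aaacaaaatccCACGTGACtggccctgagc
Atg3, site 1: ggcctccttttGTCACGTGtcctgggagag
Atg3, site 2: gggagagtcgaGTCACGTGaggccttaggt
Atg7: ccatattggtgGTCACGTGtgcagtaagtg
Lamp1: atgccgactggCACGTGACcacatcacgtg

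These windows lie at chr14:47568417-47568446 (minus strand) for Atg14, chr16:45158722-45158751 and chr16:45158745-45158774 (plus strand) for Atg3, chr6:114670951-114670980 (plus strand) for Atg7 and chr8:13159122-13159151 (plus strand) for Lamp1. The match begins 1 base before the RefSeq start in Atg14, 96 and 73 bases before it in Atg3, 134 in Atg7 and 28 in Lamp1. The windows of Atg3 and Lamp1 lie just before the gene start of GENCODE M21 as well. Those of Atg14 and Atg7 do not. In that annotation Atg14 begins at chr14:47570649 (minus strand) and Atg7 at chr6:114643097, so both windows lie inside the gene, beside a different start. In Atg14 and Lamp1 the word is read on the opposite strand. The 4 genes span most of the range of levels, from Atg14 at 3.0 and 3.33 TPM to Lamp1 at 223 and 241 TPM. Atg12, Atg16l1, Becn1, Map1lc3a, Pik3c3 and Rb1cc1 were not searched. A match describes letters in a window, and binding was not measured.

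The libraries were then compared gene by gene with an exact two-sided binomial test of the rounded estimated counts, given library sizes scaled by edgeR's TMM, with Benjamini-Hochberg adjustment over 16145 genes. A gene was called at an adjusted p under 0.05 and a fold of at least 2. With 1 group it says only how the 2 libraries differ, and no replicate stands behind a call. By this rule 0 of the 40 autophagy genes were called, against 11.8% of all genes tested (8.21% higher and 3.57% lower in replicate 2) and 6.03% of 11801 tested genes with a mean of at least 1 TPM. Their log2 ratios of replicate 2 over replicate 1 ran from -0.77 (Lamp2) to 0.70 (Map1lc3a), with a median of -0.03 beside -0.01 for all genes tested. Counting error was small: 30 of the 40 had an unadjusted p under 0.05, and 29 an adjusted p under 0.05 without the fold limit, 14 of them higher and 15 lower in replicate 2 (67.8% of all genes, 32.9% higher and 34.9% lower).

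At a looser fold of at least 1.5, 7 of the 40 passed, beside 27.3% of all genes: 2 higher in replicate 2 (15.1% of all genes) and 5 lower (12.2%). Map1lc3a had 14998 and 29049 counts, a 1.62-fold higher level in replicate 2 after scaling (95% interval 1.59 to 1.65, exact binomial, counting error only). Ulk1 had 5126 and 9254 counts and was 1.51-fold higher. The genes lower in replicate 2 were Lamp2 (8194 and 5748 counts, 1.70-fold), Rb1cc1 (1198 and 857, 1.67-fold), Atg4a (338 and 251, 1.61-fold), Fundc1 (818 and 627, 1.56-fold) and Fundc2 (3226 and 2551, 1.51-fold). Bag3, with 6836 and 12229 counts, lay just short of that limit at 1.498-fold higher, and Fundc2 and Ulk1 just past it.

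The ratios followed base composition. Across the 40 genes the log2 ratio and the GC content of the transcripts had a Pearson r of 0.86 and a Spearman rho of 0.88, given as a description of genes that share the same 2 libraries. Across 15978 tested genes Spearman's rho was 0.60. The median GC content was 51.6% for the 40 and 50.9% for all genes tested. After a trend on GC content fitted over all tested genes was removed, 0 of 40 differed by 1.5-fold, beside 16.1% of all genes. Map1lc3a then stood at a log2 ratio of 0.04, Ulk1 at 0.14, Rb1cc1 at -0.19, Lamp2 at -0.22, Atg4a at -0.27, Fundc1 at -0.13 and Fundc2 at 0.10. The sign of the ratio changed for 14 of the 40, among them Tfeb (0.40 to -0.34), Atg2a (0.40 to -0.16), Atg101 (0.31 to -0.15) and Atg10 (-0.46 to 0.06). The values after removal ran from -0.55 (Pink1, which was at -0.01 before) to 0.29 (Map1lc3b). The part played in these ratios by erythroid, airway, fat, skeletal muscle and immune list genes higher in replicate 2 was not tested.

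Lamp2, Fundc1, Fundc2 and Atg4a are the 4 members on chromosome X, and 4 of 4 were lower in replicate 2. Of 509 tested genes on chromosome X, 69.0% were lower, beside 51.2% of all tested genes (17 of the 40 were above 0, beside 48.8% of all genes). The median log2 ratio on chromosome X was -0.29, beside -0.01 for all tested genes. After the GC trend was removed it was -0.07, beside -0.06 for all tested genes. With Xist and the Y-linked genes differing between the same libraries, sex, base composition and library cannot be told apart here.

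**Figure D5:**
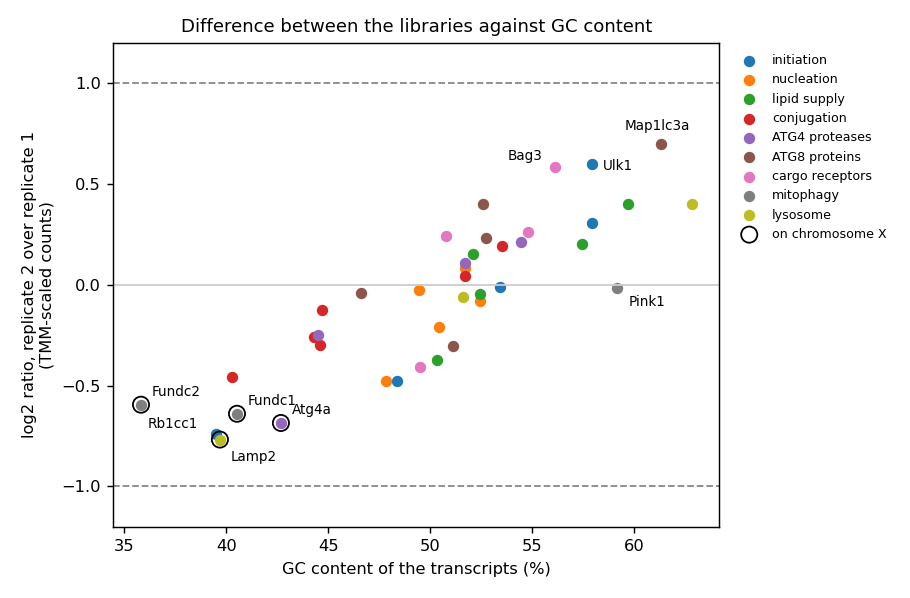
Log2 ratio of replicate 2 over replicate 1 (TMM-scaled counts) against transcript GC content (%) for the 40 genes, coloured by step, with chromosome X genes circled and dashed lines at a 2-fold difference. The points run from Lamp2 at -0.77 to Map1lc3a at 0.70, and none reaches a dashed line.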

How the data were processed

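Poly(A) RNA-seq of 2 mouse heart libraries was analysed from tables of genes and transcripts on mm10 with GENCODE M4, per the notes deposited with them (aligner and quantifier not given in the sources used here). As measurements, the authors deposited expected counts (estimated fragments, divided among transcripts) and TPM (transcript abundance per length, scaled to a fixed total), per the file headers, with posterior means and SDs. Dividing fragments among overlapping transcript models can affect transcript shares and, through transcript length, the TPM of genes. Lists of contigs and splice junctions on an older build were not used. Identifiers were named from GENCODE M21: 42462 of 43346 (98.0%) matched.

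The member genes, steps, pairs and marker lists were chosen with earlier results of these data known. All 40 members could be named, and of other pathway and marker genes those called between libraries and up to 2 per list of highest TPM. Expected counts were rounded for the binomial test on genes whose 2 libraries together held 20 counts or more, scaled with edgeR 4.0.16 (TMM factors 0.957 and 1.04). Alternatives used total counts, DESeq2 1.42.0 size factors (0.921 and 1.09), no count minimum, other fold limits, and lowess trends (fraction 0.3) on GC content or length. The test was checked on simulated counts that held counting noise alone, the noise it assumes. That check does not cover differences between libraries beyond counting error, such as the trend on GC content. Python 3.11.15 with scipy 1.17.1 and statsmodels 0.14.6 was used. Intervals cover counting error only, because each rests on 1 count per library and leaves out variation between libraries. Reads without molecular identifiers are not independent molecules, so the intervals can understate counting error as well.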

Additional observations from a re-analysis of the deposited data

How the results depend on the processing

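The share of TPM held by the 40 genes (0.188%) became 0.415% without mitochondrial genes and copies in the total, 0.338% by expected counts not divided by length, and 0.143% on protein-coding transcripts alone, a setting added once the data had been seen. The ATG8 share of 43.6% became 23.1% by counts, where the lysosome genes were ahead in replicate 1, and 32.8% on protein-coding transcripts. With Bag3, a co-chaperone gene, left out of the cargo receptors, their share fell from 10.7% to 7.68% ± 0.295. The Lamp2 form B share became 82.7% by counts. Ulk1 over Ulk2 turned from a log2 ratio of -0.65 to 1.48 on protein-coding transcripts; by counts its mean was 0.37 ± 0.76, with replicate 1 still below 0, so the pair was not resolved. The count of genes differing between libraries rose from 0 to 7 at a 1.5-fold limit and to 29 with no fold limit, and was 0 with total counts, DESeq2 size factors, no count minimum, or GC or length trends removed. With the GC trend removed the sign changed for 14 of the 40, and Fundc2 (at 0.10) was the one among the 7 past 1.5-fold. Total counts in place of TMM raised all log2 ratios by 0.13, so 24 of 40 were above 0 in place of 17. Using 1 library at a time, the share ran from 0.168% to 0.208%, the ATG8 share from 42.0% to 45.3% and form B from 65.3% to 76.4%. No paired analysis was possible because there is 1 group of 2 libraries. Depth limits Atg4c most, with 187 and 188 counts.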

Other observations

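A further 84 genes of the pathway, from lists of other initiation and nucleation factors, other receptors, fusion factors, regulators, lysosomal hydrolases and lysosomal membrane or V-ATPase genes, summed to 3707 and 4243 TPM. The lysosomal hydrolases and their activators held 1579 and 1775 TPM of this over 16 genes, led by Psap, the saposin precursor, at 635 and 673 TPM and by Ctsd, encoding cathepsin D, at 508 and 587 TPM. Atp6v0c, a proton channel subunit of the V-ATPase, stood at 276 and 388 TPM. Hspb8, encoding the small heat shock protein that partners with BAG3, stood at 236 and 292 TPM. Rab7, encoding the GTPase of late endosome and autophagosome fusion, stood at 119 and 112 TPM. The regulators were lower, with Mcoln1, encoding a lysosomal calcium channel, at 41.2 and 46.2 TPM as the highest of 14. Between the libraries 0 of the 84 were called, beside 11.8% of all genes tested, with a median log2 ratio of -0.06.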
